A study of Homo sapiens with 21 samples.

Results

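AP-1 is a family of paired transcription factors of the basic leucine zipper (bZIP) class, and its mRNAs were followed here across all 7 groups of a study of senescent human fibroblasts. The members were the 10 genes whose symbol in the deposited table is FOS, FOSB, FOSL1, FOSL2, JUN, JUNB, JUND, ATF3, BATF3 or MAFF, out of 16383 listed genes. All 10 were listed, and all 10 passed the filter on low values, which kept the 11579 genes that reached 10 in 3 or more libraries. FOSB passed only through the irradiated groups, so its difference from proliferating cells was partly set by that filter.

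The cells were IMR90 human lung fibroblasts, sequenced as poly(A) RNA in 7 groups of 3 libraries. Proliferating cells are taken as not irradiated and without siRNA. No siRNA dose, transfection day or collection day is listed for them. The other 6 groups were irradiated to make them senescent, given 5 nM of siRNA at 4 and again at 7 days past irradiation, and collected at day 10. Of these, 2 groups were controls with a non-targeting siRNA, called NT3 and NT4, and 4 groups had siRNA against CDK4, CDK6, both CDK4 and CDK6 (dual knockdown), or CCND1. CDK4 and CDK6 are the kinases that cyclin D1, the product of CCND1, activates to drive cells out of G1. Irradiation and transfection always came together, so their effects cannot be told apart in any comparison with proliferating cells. Nothing in the labels says that the 3 libraries of a group came from separate cultures, so p-values measure only the spread between these libraries. No siRNA sequence is given in the sources used here, so effects of a reagent beyond its target cannot be told apart from effects of the target.

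AP-1 dimers form between a Jun protein (JUN, JUNB, JUND) and a Fos protein (FOS, FOSB, FOSL1, FOSL2), or between Jun proteins, and they bind short palindromes in promoters and enhancers. FOS, FOSB, JUN, JUNB and ATF3 are classical immediate early genes, switched on within minutes by growth factors and stress through MAP kinases, whereas FOSL1 (FRA1) and FOSL2 (FRA2) follow later and last longer. ATF3 is a stress-induced bZIP factor that pairs with Jun proteins, BATF3 is a small bZIP factor that also pairs with Jun proteins and is best known from dendritic cells, and MAFF is a small Maf protein that lacks an activation domain of its own. In senescent fibroblasts AP-1 is known as a regulator of enhancers of inflammatory secreted factors.

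Several members are known to carry AP-1 or CREB binding motifs in their own promoters, and the stretches before the start of 4 of them are shown because they hold the motifs that the members share. RefSeq promoter entries (build GRCh38.p14) matched 8 of the 10 members by symbol, with 10 entries in all. ATF3 and MAFF had more than 1 entry each, and ATF3 is shown for the upstream one. Each stretch below lies within the 250 bases before the RefSeq start, is read 5′ to 3′ on the gene's strand, and ends where the GENCODE annotation begins the gene. Capitals mark a motif match, which describes letters and not a bound site.
JUN, chr1:58784049-58784297, minus strand: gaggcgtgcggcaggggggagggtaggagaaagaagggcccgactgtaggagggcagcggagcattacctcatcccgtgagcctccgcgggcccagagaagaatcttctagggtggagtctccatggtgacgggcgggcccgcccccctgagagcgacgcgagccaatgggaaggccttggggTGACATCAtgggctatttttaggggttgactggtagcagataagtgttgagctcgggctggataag
ATF3, chr1:212565157-212565333, plus strand: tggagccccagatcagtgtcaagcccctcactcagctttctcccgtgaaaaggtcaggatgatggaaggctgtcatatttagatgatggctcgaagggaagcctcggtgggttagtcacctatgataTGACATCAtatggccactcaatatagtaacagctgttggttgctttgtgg
FOS, chr14:75278578-75278825, plus strand: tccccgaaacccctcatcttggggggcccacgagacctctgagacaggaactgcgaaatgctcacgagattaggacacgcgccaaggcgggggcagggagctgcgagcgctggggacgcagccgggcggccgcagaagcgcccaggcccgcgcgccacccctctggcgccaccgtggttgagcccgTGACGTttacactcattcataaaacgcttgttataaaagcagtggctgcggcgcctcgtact
FOSB, chr19:45467746-45467994, plus strand: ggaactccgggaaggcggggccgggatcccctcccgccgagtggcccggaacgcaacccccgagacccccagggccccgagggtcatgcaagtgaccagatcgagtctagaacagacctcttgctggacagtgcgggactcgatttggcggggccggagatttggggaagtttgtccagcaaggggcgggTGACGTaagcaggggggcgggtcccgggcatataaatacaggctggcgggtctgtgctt

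JUN and ATF3 held the same 8 letters, TGACATCA, whose first letter is 67 and 123 bases before the RefSeq start, for ATF3 that of its upstream entry. FOS and FOSB held TGACGT from 64 and 60 bases before it. The printed stretches stop short of that start, by 73 bases for ATF3 and by 1 or 2 for the other genes, so the ATF3 motif begins 50 bases before the printed end. Searched on both strands of the 250 bases, TGANNTCA was found in 4 members (JUN, JUND, ATF3 and MAFF) and in 10.1% of 35114 promoter windows of the same length. TGACGT was found in 5 members (FOS, FOSB, FOSL2, JUND and MAFF) and in 7.10% of windows; a TGACGTCA counts for both motifs. TGANTCA was found in 0 members and in 6.57% of windows. The other entries of ATF3 and MAFF held 0 matches. A member with more than 1 window could match in any of them, so counts of members are not on the same footing as percents of windows.

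Per the GENCODE v44 annotation of GRCh38, the genes lie on 6 chromosomes. FOS is at chr14:75278826-75282230, FOSL1 at chr11:65892049-65900573, FOSL2 at chr2:28392448-28417317 and MAFF at chr22:38200767-38216507. Chromosome 19 holds FOSB (chr19:45467995-45475179), JUNB (chr19:12791486-12793315) and JUND (chr19:18279694-18281622). Chromosome 1 holds JUN (chr1:58776845-58784048), ATF3 (chr1:212565334-212620777) and BATF3 (chr1:212686417-212699840). ATF3 and BATF3 are 65.6 kb apart on opposite strands. Exons of JUNB share 259 bases (14.2% of its exonic length) with HOOK2 and exons of MAFF share 326 bases (5.81%) with PLA2G6, both on the opposite strand; whether the authors' counting used strand is not given in the sources used here.

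The listed genes took 12892442 to 21822152 reads per library. The targeted genes checked the labels: CCND1 knockdown left 11.8% of the mean CCND1 level of the controls, CDK4 knockdown left 8.67% of CDK4, CDK6 knockdown left 16.4% of CDK6, and the dual knockdown left 9.41% of CDK4 and 20.6% of CDK6. All 9 fibroblast markers were at 1116 or more in all libraries, and their summed level was 511896 to 524880 in proliferating cells, 388958 to 492629 in the controls, 464088 to 530579 in CDK4, CDK6 and CCND1 knockdown and 620208 to 799656 in the dual knockdown. The summed level of 6 immune markers was 3.54 to 4.37 in proliferating cells, 27.7 to 54.6 in the controls and 8.54 to 34.1 in the knockdowns, with the defining marker PTPRC at 0 to 8.90 and CD14 up to 38.0. That of 4 endothelial markers was 7.09 to 9.61, 35.0 to 48.2 and 16.0 to 37.9 in the same order. Of these markers CDH5 was at 0 to 3.28, while the highest library had 20.6 for PECAM1, 22.3 for VWF and 18.4 for KDR. The summed level of 5 epithelial markers, nearly all of it from KRT19, was 159 to 180 in proliferating cells, 257 to 319 in the controls, 282 to 390 in CDK4 knockdown and 469 to 596 in the other 3 knockdown groups. The part of these markers in the results below, which move with the same groups, was not tested, and in bulk RNA fewer cells of a type cannot be told apart from less RNA per cell.

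Levels between genes were compared as normalized read count per kb of exon. FOSL1 had the highest level per kb of the 10 members in every group, from 1885 in proliferating cells to 920.0 in CDK6 knockdown. JUN (583 to 835 per kb) and JUND (594 to 959 per kb) followed in all 7 groups, as the next 2 members in either order. FOSL2, a Fos protein of the later wave, stayed between 242 and 308 per kb. FOS, FOSB and BATF3 were the 3 lowest in every group. Their highest group mean was 24.0 per kb, that of BATF3 in proliferating cells, where 1 library reached 32.3. FOS and FOSB, the immediate early Fos genes, were therefore minor beside FOSL1 and FOSL2 in every group on this scale.

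Summed over the 7 Fos and Jun genes, the level per kb was 3824 ± 114 (SD, n = 3) in proliferating cells, 4053 ± 47.6 in NT3, 4100 ± 386 in NT4 and 4209 ± 187 in CDK4 knockdown. It was 3209 ± 191 in CCND1 knockdown, 3178 ± 102.8 in the dual knockdown and 2734 ± 347 in CDK6 knockdown. Fos members made up 57.3% ± 1.49 of the sum in proliferating cells and 41.4% to 49.0% in the irradiated groups. JUNB took 4.41% ± 0.42 of the sum in proliferating cells and 12.6% to 15.3% after irradiation. FOSL1 took 49.3% in proliferating cells, 34.6% in NT3 and 42.4% in NT4. These sums and shares were not tested. Each sum carries the exon lengths of GENCODE v44, which may not be the annotation the authors counted on.

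**Figure D1:**
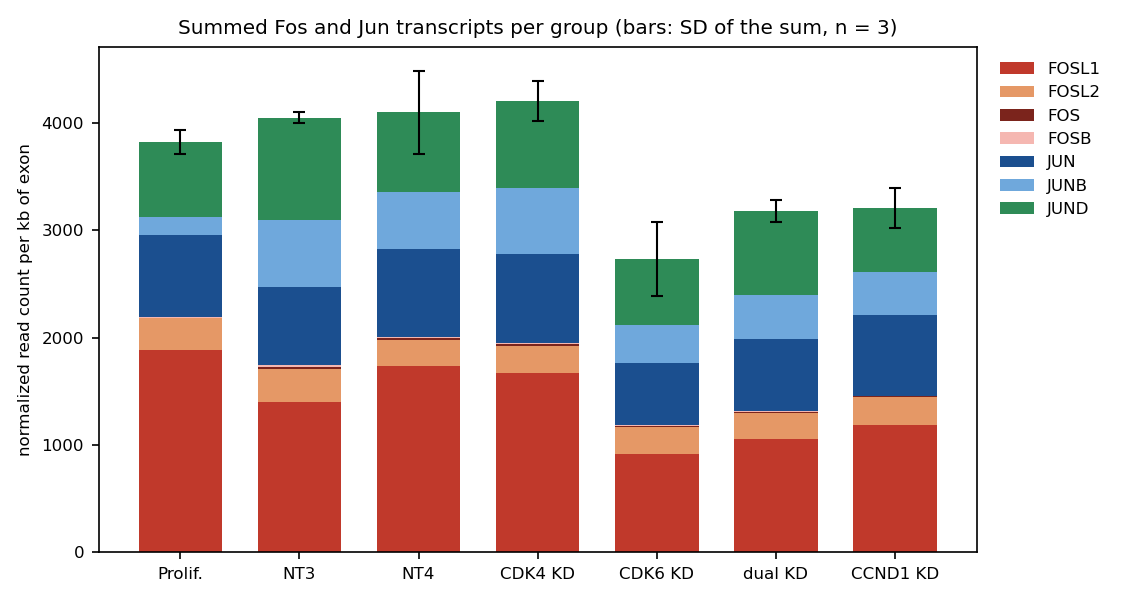
Stacked bars show the mean level of the 7 Fos and Jun genes, as normalized read count per kb of exon, in each of the 7 groups; black bars are the SD of the sum over 3 libraries. FOSL1 is the thickest layer in every group, the JUNB layer is thinnest in proliferating cells, and the totals of CDK6, dual and CCND1 knockdown (2734 to 3209) lie under those of the other 4 groups (3824 to 4209).

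The senescent controls were first set against proliferating cells, to describe the state on which the knockdowns act. By limma with Benjamini-Hochberg adjustment, 6 of the 10 members rose (FOSB, ATF3, FOS, JUNB, MAFF and JUND), 2 fell (BATF3 and FOSL1) and 2 did not pass (JUN and FOSL2). Over all tested genes 68.6% were called, 32.6% higher and 36.1% lower. The median log2 fold change was 0.77 over the members and -0.03 over all tested genes. Fold changes are on the scale of log2(value + 1), which understates changes of low genes. Against each control alone, 6 members were called in the same direction, where 52.4% of all tested genes were. In 6 members the 6 control libraries and the 3 proliferating libraries did not overlap, as in 54.1% of all tested genes. FOSB is among the members in these counts, though it passed the filter only through the irradiated groups.

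ATF3, the stress-induced partner of Jun proteins, had normalized read counts of 164, 162 and 141 in the proliferating libraries. It had 1334, 1270 and 1190 in the NT3 libraries and 906, 804 and 1049 in the NT4 libraries. Every control library lay far above every proliferating library, and NT3 lay above NT4. The rise was 2.78 on the log2 scale (SE 0.12, limma adjusted p = 1.55e-14).

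Among the Fos genes, the immediate early members rose from very low levels. FOSB, an immediate early Fos protein, was at 6.11, 5.32 and 7.09 in proliferating cells, at 60.7, 72.7 and 86.6 in NT3 and at 45.2, 80.1 and 53.5 in NT4 (log2 fold change of 3.21 by limma with SE 0.27, adjusted p = 6.20e-10). FOS, the founding member of the family, was at 13.97, 14.9 and 20.4 in proliferating cells, at 66.7, 73.7 and 68.8 in NT3 and at 54.8, 56.8 and 53.5 in NT4 (1.87, SE 0.22, 1.20e-07). Neither gene overlapped between the control and the proliferating libraries. FOSB passed the filter only through the irradiated groups. Its p-value and lack of overlap here were therefore partly set by that filter and are not independent support. FOSL1, the most abundant member, moved the other way: it was at 3582, 3357 and 3734 in proliferating cells, at 2324, 2682 and 2929 in NT3 and at 3128, 3194 and 3505 in NT4 (-0.28, SE 0.07, 0.00148). The NT3 libraries lay under all proliferating libraries but those of NT4 overlapped them, and against NT4 alone the difference was -0.12 (adjusted p = 0.205). FOSL2 gave -0.13 (95% interval -0.33 to 0.06) and did not pass.

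Of the Jun genes, JUNB, an immediate early Jun protein, rose most, from 348, 294 and 285 in proliferating cells to 1220, 1146 and 1042 in NT3 and 811, 1015 and 1119 in NT4 (log2 fold change of 1.77 by limma with SE 0.13, adjusted p = 9.43e-11). Its libraries did not overlap between the states. JUN did not pass, at 2778 ± 62.2 (SD, n = 3) in proliferating cells and 2798 ± 252 (SD, n = 6) in the controls, with a difference of 0.01 (95% interval -0.11 to 0.13). JUND, the Jun protein typical of resting cells, was higher by 0.26 (SE 0.10, adjusted p = 0.0300). That JUND call was not met with each control: against NT4 alone the difference was 0.08 (adjusted p = 0.596), and it was also lost on leaving out proliferating replicate 2 (0.27, adjusted p = 0.0640), proliferating replicate 3 (0.21, 0.128) or NT4 replicate 3 (0.20, 0.080).

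MAFF rose and BATF3 fell. MAFF, the small Maf protein, was at 735, 857 and 800 in proliferating cells, at 2595, 2358 and 2406 in NT3 and at 1409, 1441 and 1796 in NT4 (log2 fold change of 1.29 by limma with SE 0.07, adjusted p = 1.01e-12). BATF3 was at 83.0, 49.0 and 53.1 in proliferating cells, at 48.5, 18.7 and 18.4 in NT3 and at 19.2, 20.0 and 26.3 in NT4 (-1.31, SE 0.27, 2.27e-04). The control and proliferating libraries overlapped neither for MAFF nor for BATF3, where 1 NT3 library came close to the lowest proliferating one. Centring each library on its median gene, which moved the median of all genes in this comparison by 0.11 and the higher share of calls from 47.4% to 57.9%, left FOSL1 at -0.16 (adjusted p = 0.0417).

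**Figure D2:**
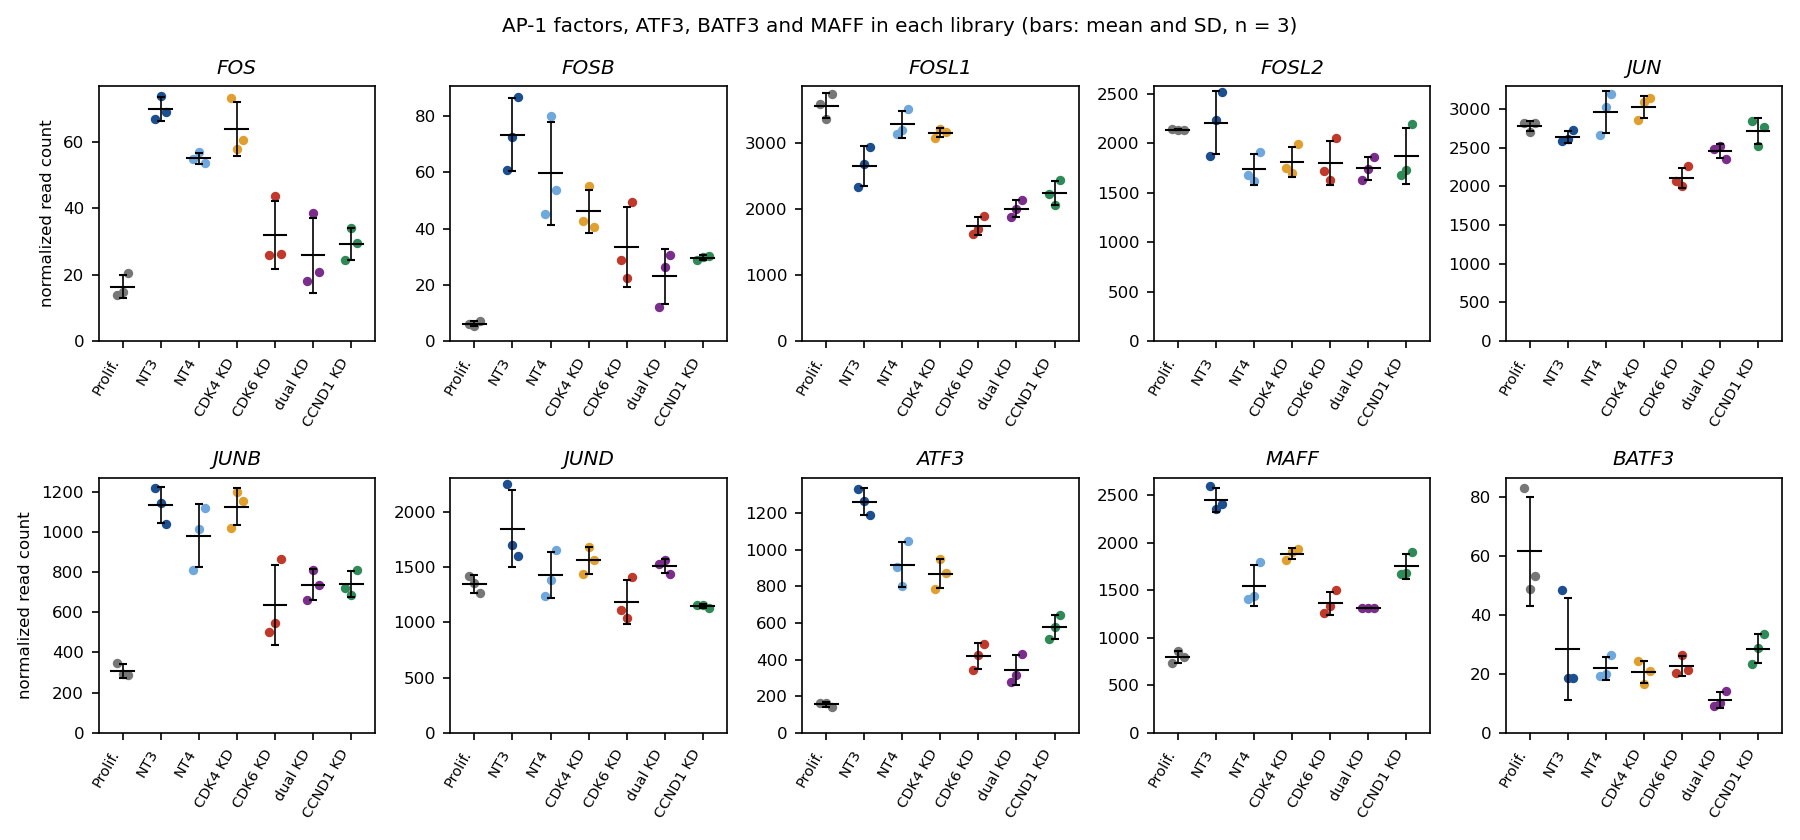
Each panel shows 1 gene, with the normalized read count of every library (dots) and the mean and SD of 3 libraries (black) in the 7 groups; all axes start at 0. ATF3, FOS, FOSB, JUNB and MAFF are lowest in proliferating cells, FOSL1 and BATF3 are highest there, and ATF3 steps down from 1264 in NT3 to 341 in the dual knockdown.

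The 2 non-targeting controls differed from each other at several members. NT4 was lower than NT3 in 4 members and higher in 1, by limma, where 27.8% of all tested genes were called, 13.1% lower and 14.7% higher. The lower ones were MAFF (log2 fold change -0.67, SE 0.08, adjusted p = 4.40e-06), ATF3 (-0.47, SE 0.14, 0.0181), JUND (-0.37, SE 0.12, 0.0245) and FOSL2 (-0.34, SE 0.11, 0.0235). FOSL1 was higher in NT4 (0.31, SE 0.08, 0.00625). The 3 libraries of each control did not overlap in 4 members (FOS, FOSL1, ATF3 and MAFF), against 34.9% of all tested genes. Calls in this comparison were sensitive to single libraries. ATF3, JUND and FOSL2 were each lost without NT4 replicate 1 and without NT4 replicate 2. The count fell to 2 members without NT4 replicate 2 and to 3 without NT4 replicate 1, where JUN came to pass (0.24). JUND was also lost without NT3 replicate 1 (-0.22), and FOSL2 without NT3 replicate 2 (-0.32) or NT3 replicate 3 (-0.24).

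The knockdowns were then compared with the mean of both controls, to ask how AP-1 mRNAs depend on cyclin D1 and its kinases in senescent cells. CDK6 knockdown lowered 8 of 10 members and the dual knockdown lowered 8, CCND1 knockdown lowered 6, and CDK4 knockdown changed none that passed. No member rose in any knockdown against the mean of both controls. Among all tested genes the lower calls were 20.8% in CDK6 knockdown, 21.5% in the dual knockdown, 14.4% in CCND1 knockdown and 7.55% in CDK4 knockdown. The higher calls were 21.1%, 22.5%, 16.7% and 8.46%, and calls in either direction were 41.9%, 44.0%, 31.0% and 16.0%. The median log2 fold change of the members was -0.64 in CDK6 knockdown, -0.56 in the dual knockdown, -0.44 in CCND1 knockdown and -0.05 in CDK4 knockdown, and that of all tested genes lay between -0.01 and 0.00. The 4 comparisons share the control libraries.

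ATF3 fell in 3 of the 4 knockdowns. Its normalized read count was 1092 ± 209 (SD, n = 6) in the controls. The CDK6 knockdown libraries had 345, 425 and 486, those of the dual knockdown 275, 317 and 432, and those of CCND1 knockdown 514, 577 and 643. All 9 lay under the lowest control library, at 804, and above the highest proliferating one, at 164. ATF3 fell by 1.68 on the log2 scale in the dual knockdown (SE 0.12, limma adjusted p = 4.75e-10), by 1.37 in CDK6 knockdown (SE 0.12, 1.63e-08) and by 0.90 in CCND1 knockdown (SE 0.12, 1.11e-05). In CDK4 knockdown it was at 789, 948 and 872, inside the range of NT4 but for the lowest library, with a difference of -0.31 that did not pass (SE 0.12, adjusted p = 0.096).

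FOS and FOSB fell in the same 3 knockdowns. FOS was at 25.9, 43.8 and 26.1 in CDK6 knockdown, at 18.0, 38.6 and 20.7 in the dual knockdown and at 24.5, 34.1 and 29.4 in CCND1 knockdown, all under the lowest control library at 53.5. Its log2 fold changes were -0.98 (SE 0.22, limma adjusted p = 0.00108), -1.31 (SE 0.22, 4.89e-05) and -1.06 (SE 0.22, 8.21e-04) in that order. In CDK4 knockdown FOS stayed at 73.1, 57.9 and 60.6 (0.04, 95% interval -0.42 to 0.49).

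FOSB was at 28.7, 22.4 and 49.4 in CDK6 knockdown, at 12.01, 26.5 and 30.6 in the dual knockdown and at 28.7, 29.9 and 30.4 in CCND1 knockdown. Its log2 fold changes were -1.01 (SE 0.27, limma adjusted p = 0.00451), -1.55 (SE 0.27, 7.32e-05) and -1.10 (SE 0.27, 0.00356). The highest CDK6 knockdown library overlapped the lowest control library, at 45.2, and without CDK6 knockdown replicate 2 the CDK6 call was lost (-0.77, adjusted p = 0.0528). In CDK4 knockdown FOSB gave -0.49, with a wide interval of -1.05 to 0.06.

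FOSL1, the main Fos mRNA here, fell less on the log2 scale than FOS and FOSB but by far more reads. It was at 1624, 1697 and 1888 in CDK6 knockdown and at 1872, 1998 and 2129 in the dual knockdown, all under the lowest control library at 2324. It was at 2227, 2060 and 2431 in CCND1 knockdown, where 1 library overlapped NT3. The log2 fold changes were -0.76 (SE 0.07, limma adjusted p = 2.33e-08), -0.56 (SE 0.07, 1.41e-06) and -0.39 (SE 0.07, 2.16e-04). CDK4 knockdown held 3073, 3203 and 3164, close to NT4 (0.10, 95% interval -0.05 to 0.25). FOSL2 did not pass in any of the 4 knockdowns, with differences of -0.07 to -0.16.

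The Jun genes differed among themselves. JUNB fell in CDK6 knockdown (501, 545 and 868; log2 fold change of -0.76 by limma with SE 0.13, adjusted p = 8.36e-05), in the dual knockdown (660, 813 and 738; -0.52, SE 0.13, 0.00318) and in CCND1 knockdown (723, 686 and 813; -0.51, SE 0.13, 0.00581). In each of these groups 1 JUNB library reached the lowest control library, at 811. JUN fell in CDK6 knockdown (2065, 2008 and 2260; -0.40, SE 0.06, 8.86e-06) and less in the dual knockdown (2487, 2519 and 2353; -0.19, SE 0.06, 0.0121), all under the lowest control library at 2580. It did not pass in CCND1 knockdown (-0.04, 95% interval -0.16 to 0.08). The JUN call in the dual knockdown was lost without dual knockdown replicate 3 (-0.16, adjusted p = 0.0706) and against NT3 alone (-0.10, adjusted p = 0.209).

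JUND fell in CCND1 knockdown, to 1156, 1155 and 1127 (log2 fold change of -0.49 by limma with SE 0.10, adjusted p = 9.80e-04), and in CDK6 knockdown, to 1111, 1038 and 1415 (-0.45, SE 0.10, 0.00127). The CCND1 knockdown libraries lay under all control libraries, the lowest of which had 1240, and those of CDK6 knockdown overlapped them. In the dual knockdown JUND held 1530, 1565 and 1436, within the control range (-0.09, 95% interval -0.31 to 0.12). The difference between CDK6 and dual knockdown is tested below.

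MAFF fell in CDK6 knockdown (1257, 1330 and 1499; log2 fold change of -0.52 by limma with SE 0.07, adjusted p = 8.43e-06) and in the dual knockdown (1315, 1309 and 1314; -0.56, SE 0.07, 2.05e-06). BATF3 fell only in the dual knockdown among the 4 comparisons with controls, where it had 9.01, 9.93 and 14.2 against 18.4 to 48.5 in the controls (-1.05, SE 0.27, 0.00362). These are few reads, and BATF3 no longer passed after quantile normalization (-0.62, adjusted p = 0.0912). In CCND1 knockdown BATF3 gave 0.25, with an interval of -0.32 to 0.82. The libraries of the dual knockdown and the controls did not overlap in 7 members, against 28.3% of all tested genes. The count was 4 in CDK6 knockdown (28.6% of all tested genes), 4 in CCND1 knockdown (21.2%) and 0 in CDK4 knockdown (11.2%).

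**Figure D3:**
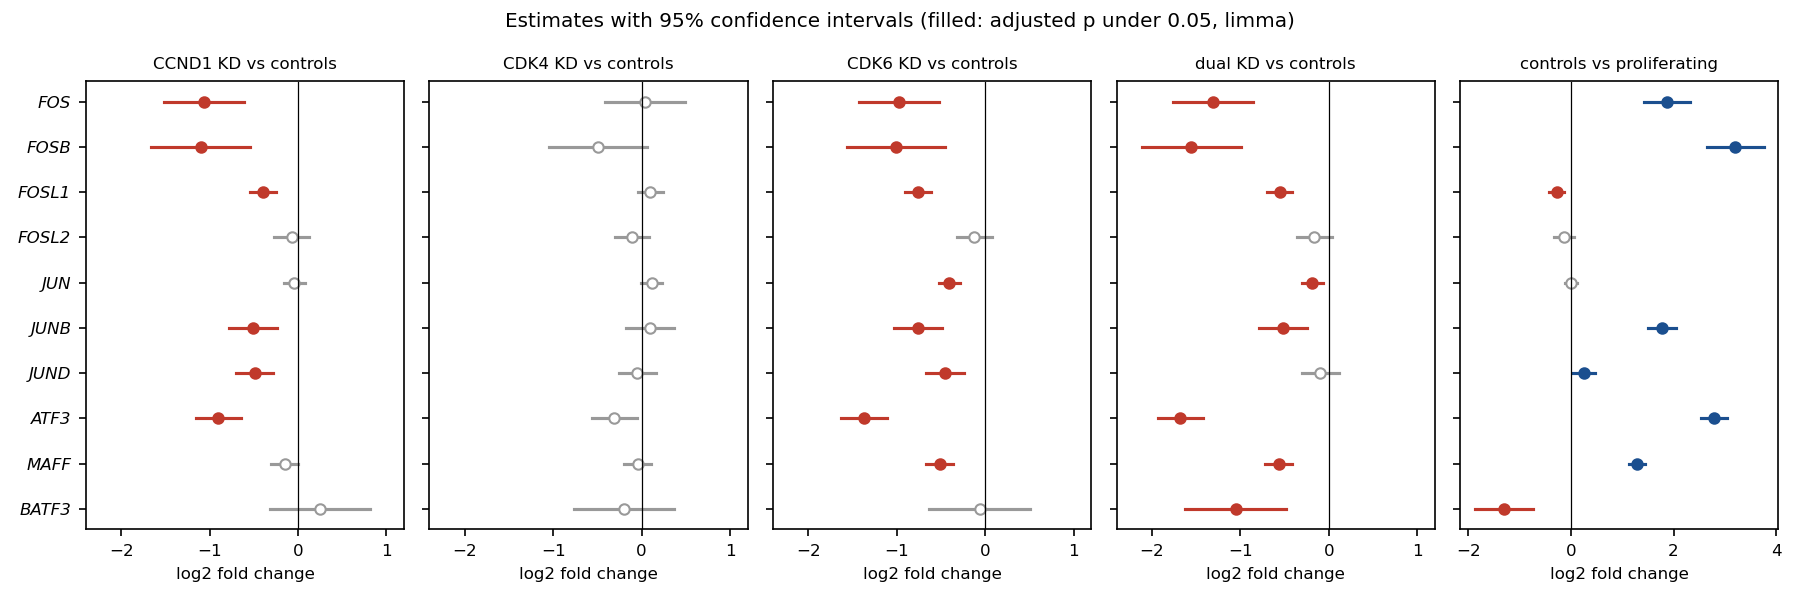
Points are log2 fold changes from limma with their 95% confidence intervals for the 10 members, in the 4 knockdowns against both controls and in the controls against proliferating cells (wider axis); filled points passed an adjusted p of 0.05. In CDK6, dual and CCND1 knockdown all filled points lie left of 0, while in CDK4 knockdown no point is filled.

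CDK4 knockdown called 0 of 10 members by limma, by edgeR and by DESeq2; at an unadjusted p under 0.05 there was 1 by limma (ATF3) and 3 by each of the other tools. The answer depended on the control. Against NT3 alone 4 members passed, with ATF3 (-0.54) and MAFF (-0.38) lower and FOSL1 (0.26) and JUN (0.20) higher. Against NT4 alone 1 member passed, and it was MAFF in the opposite direction (0.29, limma adjusted p = 0.0271). MAFF in CDK4 knockdown, at 1819, 1902 and 1934, lay between NT4 (1409 to 1796) and NT3 (2358 to 2595) without overlapping either.

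Because NT3 and NT4 differed, each knockdown was also compared with each control alone. In the dual knockdown 7 members were lower against both controls, where 12.3% of all tested genes were: ATF3, FOS, FOSB, FOSL1, JUNB, MAFF and BATF3. In CDK6 knockdown 6 members were lower against both, where 10.9% of all tested genes were: ATF3, FOS, FOSB, FOSL1, JUN and JUNB. In CCND1 knockdown 4 were, where 5.45% of all tested genes were: ATF3, FOS, FOSB and FOSL1. In CDK4 knockdown 0 members were, where 2.63% of all tested genes were. ATF3, FOS, FOSB and FOSL1 were thus lower in 3 knockdowns whichever control was used.

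Several calls rested on NT3. MAFF in CDK6 knockdown was lower by 0.85 against NT3 alone on the log2 scale, but its difference from NT4 alone was -0.18 and did not pass (limma adjusted p = 0.116). In the dual knockdown MAFF was at -0.90 against NT3 and -0.23 against NT4. In CCND1 knockdown MAFF was at -0.49 against NT3, which passed, and at 0.19 against NT4, which did not. JUND in CDK6 knockdown (-0.27 against NT4, adjusted p = 0.0937) and in CCND1 knockdown (-0.31, 0.0744), and JUNB in CCND1 knockdown (-0.40, 0.0730), also did not pass against NT4 alone. FOSL1 in CCND1 knockdown passed against both but ranged from -0.24 (NT3) to -0.55 (NT4).

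**Figure D4:**
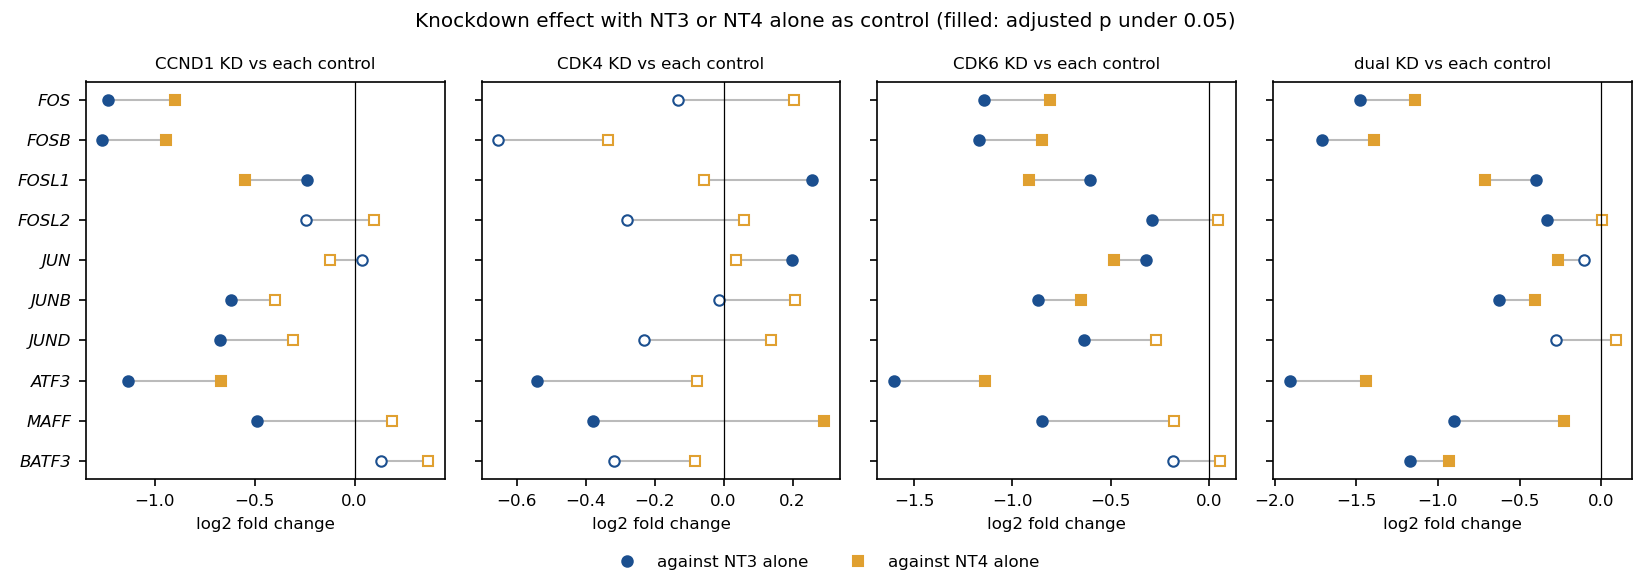
For each knockdown and member, the circle is the log2 fold change against NT3 alone and the square that against NT4 alone; filled symbols passed an adjusted p of 0.05, and the panels differ in the range of the x axis. The pair of symbols lies farthest apart for MAFF, which in CDK4 knockdown is filled on both sides of 0 (-0.38 and 0.29), whereas both symbols of ATF3, FOS, FOSB and FOSL1 are filled and left of 0 in CCND1, CDK6 and dual knockdown.

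Knockdowns were also compared directly, with no control as an arm. CDK6 knockdown was lower than CDK4 knockdown in 7 of 10 members and higher in 0, where 17.3% of all tested genes were lower, 17.5% were higher and 34.8% were called. The 7 were ATF3 (-1.06 by limma on the log2 scale, SE 0.14, adjusted p = 4.57e-06), FOS (-1.01, SE 0.25, 0.00316), FOSL1 (-0.86, SE 0.08, 4.26e-08), JUNB (-0.86, SE 0.15, 1.30e-04), JUN (-0.52, SE 0.07, 2.54e-06), MAFF (-0.47, SE 0.08, 1.50e-04) and JUND (-0.40, SE 0.12, 0.0106). In all 7 the 3 libraries of each group did not overlap, as in 51.7% of all tested genes. JUND was lost without CDK4 knockdown replicate 2 (-0.35, adjusted p = 0.0529) or CDK6 knockdown replicate 2 (-0.31, 0.0731). No non-targeting control enters these fold changes, but the control libraries share in the estimate of the spread behind the SEs and p-values.

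Adding CDK4 siRNA to CDK6 siRNA changed 3 members, where 13.0% of all tested genes were called, 6.05% higher and 6.94% lower. In 3 members the libraries did not overlap, against 36.2% of all tested genes. JUN (log2 fold change of 0.22 by limma with SE 0.07, adjusted p = 0.0330) and JUND (0.36, SE 0.12, 0.0499) were higher in the dual knockdown than in CDK6 knockdown, and BATF3 was lower (-0.99, SE 0.32, 0.0421). These calls lay near the threshold: 0 members were called after quantile normalization, 1 was called by edgeR, and 0 were called without CDK6 knockdown replicate 1, CDK6 knockdown replicate 2, dual knockdown replicate 1 or dual knockdown replicate 2. ATF3 gave -0.31 and did not pass (95% interval -0.60 to -0.01, adjusted p = 0.171).

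Where the effects of CDK4 and CDK6 siRNA add up on the log2 scale, the dual knockdown equals their total. Tests for a departure called 0 of 10 members by limma, edgeR and DESeq2, with 1 at an unadjusted p under 0.05 by each tool (JUND by limma). Over all tested genes 6.35% were called, 2.63% higher and 3.71% lower. For ATF3 the departure was 0.00 (95% interval -0.39 to 0.39). JUND gave 0.41 (SE 0.16, limma adjusted p = 0.136), which passed without CDK6 knockdown replicate 3 (0.54, 0.0439) and against NT3 alone (0.59, 0.0197). BATF3 gave -0.79, with an interval of -1.66 to 0.08.

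CCND1 knockdown was compared with the dual knockdown to set loss of the cyclin beside loss of both kinases. It was higher in ATF3 (log2 fold change of 0.78 by limma with SE 0.14, adjusted p = 3.95e-04), BATF3 (1.30, SE 0.32, 0.00492) and MAFF (0.41, SE 0.08, 0.00115) and lower in JUND (-0.40, SE 0.12, 0.0201), where 20.3% of all tested genes were called, 11.2% higher and 9.12% lower. The libraries did not overlap in 5 members, against 40.9% of all tested genes. The JUND call was lost without dual knockdown replicate 1 or 2 or CCND1 knockdown replicate 2 or 3 (-0.37 to -0.40). FOS, FOSB, FOSL1 and JUNB did not pass, with differences of 0.24, 0.45, 0.16 and 0.01; the FOSB interval ran from -0.19 to 1.09.

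The order of the 7 groups was read for each member, with neighbours taken as separate where their libraries did not overlap. For ATF3 the order from high to low was NT3, NT4, CDK4 knockdown, CCND1 knockdown, CDK6 knockdown, dual knockdown and proliferating, with NT4 overlapping CDK4 knockdown and CDK6 knockdown overlapping the dual knockdown. FOS was highest in NT3 and CDK4 knockdown, which overlapped. NT4 came next (53.5 to 56.8), just under CDK4 knockdown (57.9 to 73.1) without overlap. A wider gap without overlap lay between NT4 and CDK6 knockdown (25.9 to 43.8). CCND1 knockdown, the dual knockdown and proliferating cells followed, each overlapping its neighbour. For FOSL1 the order was proliferating, NT4, CDK4 knockdown, NT3, CCND1 knockdown, dual knockdown and CDK6 knockdown, and CDK4 knockdown and NT3 were the only neighbours that did not overlap. JUNB stood at 1136 ± 89.2 (SD, n = 3) in NT3 and 638 ± 201 in CDK6 knockdown, still above the 309 ± 33.8 of proliferating cells without overlap.

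Other genes of the pathway were read as lists. Of 29 tested genes that AP-1 is known to bind or regulate, 27 were higher and 0 lower in the senescent controls than in proliferating cells (median log2 fold change 2.09). Among all tested genes 32.6% were higher and 36.1% lower there. The lists were chosen with earlier results of these data known, so their counts are not independent evidence. CDK6 knockdown lowered 25 and raised 1 (median -0.97), the dual knockdown lowered 26 and raised 2 (-1.04), CCND1 knockdown lowered 19 and raised 1 (-0.58), and CDK4 knockdown lowered 4 and raised 2 (-0.08). In the same order 20.8%, 21.5%, 14.4% and 7.55% of all tested genes were lower, and 21.1%, 22.5%, 16.7% and 8.46% were higher. Many of the 29 genes are also targets of other factors, and binding by AP-1 was not measured here. The genes with the largest falls in CDK6 knockdown were IL1B (-3.38, SE 0.23, limma adjusted p = 3.15e-10), CXCL8 (-3.15, SE 0.26, 5.58e-09), IL1A (-3.10, SE 0.34, 3.52e-07) and IL24 (-2.17, SE 0.28, 3.00e-06), all secreted inflammatory factors. In CDK4 knockdown the growth factors EREG (0.76) and AREG (0.59) rose while the chemokine CCL2 (-0.64) and the prostaglandin synthase PTGS2 (-0.46) fell. NT4 was itself lower than NT3 in 13 of the 29 and higher in 1, with IL6 at -2.12 and CXCL8 at -1.60. Between these controls 13.1% of all tested genes were lower and 14.7% higher.

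Of 25 tested immediate early genes outside AP-1, 16 rose and 3 fell in the senescent controls, led by NR4A3 (log2 fold change 3.13) and BTG2 (2.48). Among all tested genes 32.6% rose and 36.1% fell there. CDK6 knockdown lowered 17 and raised 2, CCND1 knockdown lowered 16 and raised 2, the dual knockdown lowered 14 and raised 2, and CDK4 knockdown lowered 3 and raised 2. In the same order 20.8%, 14.4%, 21.5% and 7.55% of all tested genes were lower, and 21.1%, 16.7%, 22.5% and 8.46% were higher. GEM, a small GTPase, gave -1.99 (SE 0.12, limma adjusted p = 5.62e-11) in CDK6 knockdown and -1.78 in the dual knockdown. PPP1R15A, a stress-induced phosphatase subunit, gave -0.97 in CDK6 knockdown and -0.80 in CCND1 knockdown. The nuclear receptor NR4A2 gave -0.98 in CCND1 knockdown and -1.51 in the dual knockdown.

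Upstream of AP-1, 30 tested genes of the MAP kinase pathway were read the same way. In the senescent controls 4 rose and 17 fell (median log2 fold change -0.19), where 32.6% and 36.1% of all tested genes did. Against the controls, CDK6 knockdown raised 9 and lowered 8, the dual knockdown raised 8 and lowered 9, CCND1 knockdown raised 7 and lowered 2, and CDK4 knockdown raised 7 and lowered 3. The medians were 0.02 to 0.08, and over all tested genes 21.1% rose and 20.8% fell in CDK6 knockdown. MAPK3, which encodes ERK1, rose by 0.49 in CDK6 knockdown and by 0.54 in the dual knockdown on the log2 scale. MAPK8, which encodes JNK1, gave -0.54 in CDK6 knockdown and 0.35 in CDK4 knockdown. Of 12 tested feedback genes that MAP kinase activity induces, 8 rose and 1 fell in the senescent controls. CDK6 knockdown and the dual knockdown each lowered 7 and raised 2, CCND1 knockdown lowered 7 and raised 1, and CDK4 knockdown lowered 2 and raised 0. In the same order 20.8%, 21.5%, 14.4% and 7.55% of all tested genes were lower, and 21.1%, 22.5%, 16.7% and 8.46% were higher. DUSP4, a phosphatase of ERK and JNK, was 2.67 higher in the senescent controls and gave -1.01 in CDK6 knockdown, -1.46 in the dual knockdown and -0.50 in CCND1 knockdown.

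Other bZIP genes were read next. Of 22 tested, 9 rose and 8 fell in the senescent controls (median log2 fold change 0.09), shares near those of all tested genes. CDK6 knockdown lowered 10 and raised 5, the dual knockdown lowered 11 and raised 3, CCND1 knockdown lowered 8 and raised 1, and CDK4 knockdown lowered 1 and raised 2. In the same order 20.8%, 21.5%, 14.4% and 7.55% of all tested genes were lower, and 21.1%, 22.5%, 16.7% and 8.46% were higher. DDIT3 (CHOP), a stress-induced partner of C/EBP proteins, was 1.31 higher in the senescent controls and gave -1.07 in CDK6 knockdown (SE 0.09, limma adjusted p = 5.51e-09), -1.13 in the dual knockdown and -0.84 in CCND1 knockdown. CEBPB, a bZIP factor of the senescent secretory programme, was 1.09 higher in the senescent controls and gave -1.06, -0.96 and -0.53 in the same order. BATF2 gave -1.27 in the dual knockdown and was 2.83 higher in the senescent controls, whereas JDP2 was lower there (-0.95).

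Stress lists that could share ATF3 were read beside it. Of 13 tested ATF4 target genes, 3 of which (DDIT3, CEBPB and ATF5) are also in the bZIP list, 4 rose and 6 fell in the senescent controls, and CDK6 knockdown lowered 8 and raised 1. The dual knockdown lowered 7 and raised 0, CCND1 knockdown lowered 5 and raised 2, and CDK4 knockdown lowered 3 and raised 0. The amino acid synthesis genes PHGDH (log2 fold change -2.43), PSAT1 (-1.83) and ASNS (-1.68) fell in the senescent controls. DDIT3 and CEBPB of the same list rose there, as ATF3 did. Whether ATF4 had a part in the ATF3 level was not tested. Of 8 tested heat shock genes, 1 rose and 5 fell in the senescent controls, and CDK6 knockdown lowered 3 and raised 1. The dual knockdown lowered 2 and raised 1, CDK4 knockdown lowered 2 and raised 0, and CCND1 knockdown raised 2 and lowered 0. Beside both lists, 32.6% of all tested genes rose and 36.1% fell in the senescent controls. All-gene lower calls were 20.8% in CDK6, 21.5% in dual, 7.55% in CDK4 and 14.4% in CCND1 knockdown. The higher ones were 21.1%, 22.5%, 8.46% and 16.7% in that order. HSPD1, a mitochondrial chaperone, gave -0.52 in the senescent controls and -0.41 in CDK6 knockdown.

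**Figure D5:**
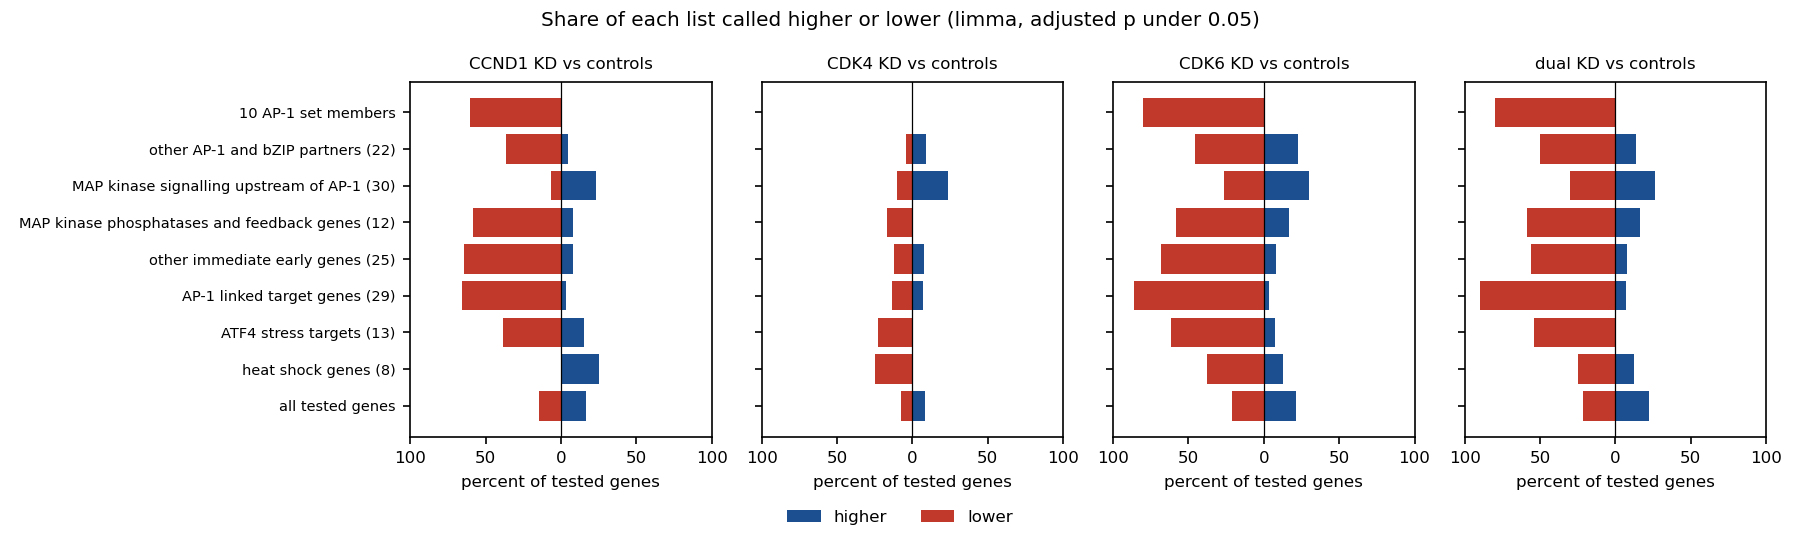
Bars give the percent of tested genes called higher (right) or lower (left) by limma in each knockdown against both controls, for the 10 members, for 7 lists (tested genes in brackets) and for all tested genes. The members, the immediate early genes and the AP-1 linked genes extend to the left in CCND1, CDK6 and dual knockdown, where 14.4% to 21.5% of all tested genes were lower. The feedback genes, the ATF4 targets and the other bZIP genes also have the longer bar on the left in these groups. The bars of the MAP kinase genes extend to both sides.

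The genes whose profile over the 7 group means was most like each member were found among 9102 genes with a mean of at least 100, by the root mean square difference of centred log2 means. Among the nearest to ATF3 were IFITM1 (0.14) and ZC3H12A (0.15), nearest to FOS was PARP9 (0.11), and nearest to FOSB was BMP2 (0.23). JUNB was nearest to SQSTM1 (0.09) and GADD45A (0.10), JUND to GADD45B (0.06), FOSL1 to RIN1 (0.07) and MAFF to TNIP1 (0.11). BATF3 was nearest to NETO2 (0.185) and CHEK1 (0.24). Among the members themselves the closest pairs were FOSL2 with JUN (0.197), FOSL2 with JUND (0.207), JUN with JUND (0.222) and FOSL1 with JUN (0.234), followed by FOSB with ATF3 (0.238) and MAFF with JUNB (0.248). A flat gene such as FOSL2 or JUN is close to many flat genes, so these distances describe shape and size together.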

How the data were processed

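RNA of 21 libraries was analysed from a table in which the authors deposited 1 normalized count per gene and library (unit: signal, a read count divided by a size factor). All values returned whole reads (100%, within a tolerance of 1e-06 reads plus 1e-06 of the count), which were used for the edgeR and DESeq2 alternatives only. The submitters' processing notes name Trimmomatic 0.38.1, HISAT2 2.2.1, featureCounts 2.0.3, FastQC 0.74, MultiQC, DESeq2 2.11.40.8 and the build GRCh38; the annotation and the use of strand are not given in the sources used here. The listed Entrez identifiers end at 140467, so genes with higher ones were not analysed here, and 19 genes had no symbol. Column headers give each library's group but no replicate number, so replicates 1 to 3 are names in ascending header number.

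The genes that reached 10 in 3 or more libraries were fitted with limma 3.58.1 (R 4.3.3, trend) on log2(value + 1), with 1 mean for each of 7 groups, two-sided, and adjusted by Benjamini-Hochberg within each of 10 comparisons; a call is an adjusted p under 0.05. The controls are the mean of NT3 and NT4. The fit was tested on simulated data. The 10 members and the gene lists were chosen with earlier results of these data known. Named list genes are at most 4 per list and comparison, the called genes with the largest fold changes and a mean of at least 100 in the higher arm. The genes named as nearest to a member are among the 3 with the smallest distance. Alternatives were edgeR 4.0.16, DESeq2 1.42.0, other pseudocounts, filters and scalings, each control alone, the compared groups alone, and leaving out each library.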

Additional observations from a re-analysis of the deposited data

How the results depend on the processing

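Members called in the first fit kept their direction in every alternative run; of 954 such values 62 no longer passed the threshold and 892 did. Of 596 values not called, 37 changed sign and 14 came to pass. Every member was followed in the comparisons with proliferating cells, with the controls and between them. In direct comparisons of knockdowns only the called members were followed, and in the departure from the sum only ATF3, JUND and BATF3.

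Counts of called members moved by over 1.5 times in these cases. CDK4 knockdown gave 4 against NT3 alone and 1 against NT4 alone, in place of 0. The dual against CDK6 knockdown gave 1 without a filter, 0 after quantile normalization, 1 by edgeR, 0 in the irradiated libraries alone and 0 to 3 on leaving out single libraries, in place of 3. NT4 against NT3 gave 2 in a fit of these groups alone and 2 to 5 on leaving out libraries. A filter on a mean of at least 100 gave 5 in the senescent comparison and 5 in the dual knockdown, since it drops FOS, FOSB and BATF3. The departure from the sum gave 1 against NT3 alone and 0 to 1 on leaving out libraries. Where the cause is not named, the cause was not tested.

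Among the values followed, sign changes were in differences that had not passed. Against NT3 alone they were FOSL2 (0.037) and JUN (-0.075) in the senescent comparison, JUN in CCND1 knockdown (0.039), and FOS (-0.13) and JUNB (-0.012) in CDK4 knockdown. Against NT4 alone they were FOSL2 (0.10) and MAFF (0.19) in CCND1 knockdown, FOSL1 (-0.056), FOSL2 (0.060), JUND (0.14) and MAFF (0.29) in CDK4 knockdown, FOSL2 (0.047) and BATF3 (0.055) in CDK6 knockdown, FOSL2 (0.0080) and JUND (0.090) in the dual knockdown, and ATF3 (-0.23) in the departure from the sum. BATF3 in CDK6 knockdown was 0.14 after quantile normalization. On leaving out libraries the ranges were -0.023 to 0.044 for JUN in the senescent comparison, -0.46 to 0.21 for BATF3 in NT4 against NT3, -0.063 to 0.10 for FOS, -0.10 to 0.027 for JUND, -0.32 to 0.024 for BATF3 and -0.075 to 0.012 for MAFF in CDK4 knockdown, -0.18 to 0.16 for BATF3 in CDK6 knockdown, -0.079 to 0.0086 for JUN in CCND1 knockdown and -0.18 to 0.14 for ATF3 in the departure.

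Over all tested genes, a fit of the compared groups alone called 976 genes in place of 3216 in NT4 against NT3, 2285 in place of 3594 in CCND1 knockdown, 798 in place of 1854 in CDK4 knockdown, 2479 in place of 1504 in the dual against CDK6 knockdown, and 394 in place of 735 in the departure from the sum. NT3 alone gave 2962 in CDK4 knockdown and 1899 in the departure, and NT4 alone gave 2235 in CCND1 knockdown and 455 in the departure. Leaving out libraries gave 1062 to 2692 in CDK4 knockdown, 442 to 1438 in the departure and 937 to 1244 in the dual against CDK6 knockdown.

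The replicate block, chosen after seeing the data, used 3 runs of header numbers that each hold 1 library of the 6 irradiated groups. Same-run deviations correlated at -0.11 to 0.10 (median 0.04), and those between runs had a median of -0.02 and a highest value of 0.16. In 60 of 90 comparisons, each a choice among 3 libraries, a library was closest to its own run. That is more often than an even choice would give, though these comparisons are not independent. The runs were not taken as pairs in the main fit, and whether a run shares a batch was not tested. With the replicate block the dual knockdown called 9 members in place of 8, the dual against CDK6 knockdown 2 in place of 3, and CDK4 knockdown 0. Of the 3 members called in the main fit of the dual against CDK6 knockdown, only JUN still passed. JUND (limma adjusted p = 0.0854) and BATF3 (0.0663) did not, so the other call was of a member not called in the main fit. Counts for FOS, FOSB and BATF3 rest on few reads, which limits their precision.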
